A study of Mus musculus with 16 samples.

Results

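The Fc gamma receptors, the surface proteins through which macrophages recognise antibody of the IgG class, were followed at the RNA level in mouse RAW264.7 cells given the osteoclast-inducing cytokine RANKL, vesicles of prostate cancer cells, or a combination of them. They were chosen by gene name as Fcgr1, Fcgr2b, Fcgr3 and Fcgr4, which are 4 of the 20490 genes in the table. RAW264.7 is an established mouse macrophage line that serves as an osteoclast precursor, and PC3M is a metastatic human prostate cancer line whose extracellular vesicles (EV), small membrane particles shed into the medium, were collected. In the EV+RANKL groups the cells received 30 µg/mL of PC3M vesicles with 10 ng/mL of recombinant mouse RANKL fused to GST. The EV groups received the vesicles alone, the RANKL groups the cytokine alone, and the PBS groups only phosphate-buffered saline. Every culture had attached for 12 h in serum-containing medium beforehand and was harvested after 72 h or 48 h, which gives 8 groups of 2 libraries each (n = 2 per group throughout). Nothing in the labels states whether the 2 libraries of a group stem from different cultures. A p-value here therefore reflects the spread between these libraries, which may be technical.

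Fc gamma receptors turn bound IgG into a cellular signal. Fcgr1 (CD64) is the high-affinity activating receptor, Fcgr3 (CD16) is a low-affinity activating receptor, and Fcgr4 is a further activating receptor of the mouse. These activating receptors depend on the common gamma chain, encoded by Fcer1g, whose ITAM motif is phosphorylated by Src-family kinases and then recruits the kinase Syk. Fcgr2b is the inhibitory member of the family; its cytoplasmic ITIM motif recruits the phosphatase SHIP1, encoded by Inpp5d. The gamma chain also serves costimulatory receptors of osteoclast precursors, and in mice immune complexes acting through Fcgr4 on osteoclasts have been linked to bone loss in arthritis.

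All 4 genes were measured at 1.21 RPKM or more in every library and passed the filter on low values. The family did not move as a block. With RANKL, Fcgr1 and Fcgr3 fell at either time, Fcgr4 rose at 72 h, and Fcgr2b did not pass the test at either time. With vesicles alone, Fcgr2b and Fcgr4 rose at 72 h, and no member passed the test at 48 h. Both vesicle calls, and that of Fcgr3 with RANKL at 72 h, were lost in some fits that left out 1 library. The comparison of vesicles with PBS at 72 h also runs across a division of the libraries described below. When vesicles were added to RANKL, no member passed the test at either time.

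Values are RPKM, reads per kilobase of transcript and per mega (M) of reads, taken back from a deposited log2(RPKM + 1) scale. Each library rested on an estimated 18.3 M to 20 M reads, and 14779 to 15633 genes had a value above 0. Markers of macrophages were high, with Csf1r at 170 to 349 RPKM and Cd68 at 782 to 1320 RPKM over the 16 libraries, while Mrc1 stayed at or below 0.53 RPKM. The summed level of 9 osteoclast markers was 1100 to 1600 RPKM with EV+RANKL, 97 to 126 with EV, 455 to 835 with RANKL and 18.6 to 19.4 with PBS at 72 h. Of 6 epithelial or carcinoma markers, 3 were in the table and none exceeded 0.0499 RPKM, and 3 B cell markers stayed at or below 0.143 RPKM. In 5 of the 72 h libraries (both of EV+RANKL, both of EV and replicate 2 of RANKL), 782 genes lay above and 777 below all 11 other libraries, none of them an Fc gamma receptor. Ribosomal protein genes took 11.04% to 11.46% of summed RPKM in those 5 libraries and 8.205% to 9.809% in the 11 others. The comparison of EV with PBS at 72 h runs wholly across this division, so the division and the vesicles cannot be told apart there.

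In the mouse genome (build GRCm38, GENCODE release M21), 3 of the genes lie together on chromosome 1, Fcgr2b at chr1:170958617-170976547 on the minus strand, Fcgr4 at chr1:171018920-171029761 on the plus strand and Fcgr3 at chr1:171051174-171064935 on the minus strand. Fcgr1 lies apart, at chr3:96282909-96293969 on the minus strand. Fcer1g, the gamma chain gene, is on chromosome 1 too, at chr1:171229572-171234365. Of the 4 protein-coding genes that flank these loci, none passed the filter on low values, so no change of a neighbour is given.

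The sequences set a limit on what the measurements can separate. Coding sequences of Fcgr2b and Fcgr3 were identical at 86.8% of 787 aligned bases, against 64.6% to 68.7% for every other pair. Of all stretches of 50 bases in the Fcgr3 transcript, 12.8% occurred unchanged in the Fcgr2b transcript, and of those in Fcgr2b 10.9% occurred in Fcgr3; no other pair shared any. The shared stretches include coding exon 4 of either gene, 255 bases long, which differs at 5 bases. The 120-base part of that exon shown next holds 4 of the differences, set in capitals, and is read 5′ to 3′ on the minus strand from the GENCODE transcripts (Fcgr3 chr1:171053974-171054093, Fcgr2b chr1:170966481-170966600).
Fcgr3: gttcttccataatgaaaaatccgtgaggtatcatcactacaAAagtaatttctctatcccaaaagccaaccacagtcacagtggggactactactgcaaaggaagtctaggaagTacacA
Fcgr2b: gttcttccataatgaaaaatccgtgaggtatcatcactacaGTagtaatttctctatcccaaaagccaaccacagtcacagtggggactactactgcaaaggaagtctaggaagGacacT
How the authors assigned reads that match more than 1 gene was not given, so reads from such stretches could be split between Fcgr2b and Fcgr3 in an unknown way. An annotated antisense gene also overlaps Fcgr2b, and whether counting used strand is not given.

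The promoters of the genes that changed in opposite directions with RANKL are shown next, as the 250 bases before the RefSeq transcription start (GRCm38.p6). They were searched on both strands for 4 short motifs: GAGGAA, the core bound by the myeloid factor PU.1; TTCNNNGAA, the interferon gamma-responsive GAS element; TGGAAA, the core bound by NFAT; and TGANTCA, the AP-1 element. Matches are in capitals, and none overlapped another. Fcgr1 is at chr3:96293970-96294219 on the minus strand, Fcgr3 at chr1:171059404-171059653 on the minus strand and Fcgr4 at chr1:171018676-171018925 on the plus strand. The Fcgr3 window belongs to the first listed of 2 RefSeq starts and lies inside the GENCODE span of the gene. The window of the other start was not searched.
Fcgr1: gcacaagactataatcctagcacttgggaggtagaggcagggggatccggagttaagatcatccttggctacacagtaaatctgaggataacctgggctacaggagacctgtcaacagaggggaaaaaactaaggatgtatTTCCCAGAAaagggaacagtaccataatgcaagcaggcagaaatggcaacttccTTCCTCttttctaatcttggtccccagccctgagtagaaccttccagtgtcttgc
Fcgr3: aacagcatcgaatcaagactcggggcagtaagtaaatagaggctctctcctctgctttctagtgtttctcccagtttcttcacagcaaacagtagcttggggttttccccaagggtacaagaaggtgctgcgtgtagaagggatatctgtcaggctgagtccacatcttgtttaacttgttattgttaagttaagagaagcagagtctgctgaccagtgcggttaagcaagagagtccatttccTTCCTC
Fcgr4: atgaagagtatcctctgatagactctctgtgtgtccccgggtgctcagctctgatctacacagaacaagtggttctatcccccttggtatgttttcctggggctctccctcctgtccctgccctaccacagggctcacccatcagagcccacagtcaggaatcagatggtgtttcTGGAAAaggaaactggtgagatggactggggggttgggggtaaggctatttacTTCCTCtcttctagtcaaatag
The GAGGAA motif, as its complement, began 55 bases before the start in Fcgr1, 6 bases before it in Fcgr3 and 22 bases before it in Fcgr4. Among the windows searched, Fcgr1 held the only GAS match, 109 bases before the start, and Fcgr4 the only NFAT match, 75 bases before it. The Fcgr2b window held none of the 4 motifs. Over all 32851 mouse windows of this length, 23.3% held GAGGAA, 7.02% TTCNNNGAA, 18.6% TGGAAA and 6.75% TGANTCA, so single matches are frequent, and these are matches of letters, not measured binding sites.

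Fcgr1, the high-affinity receptor, split the libraries by RANKL. At 72 h it measured 1.81 and 1.65 RPKM with EV+RANKL, 14.4 and 13.1 with EV, 4.08 and 2.08 with RANKL, and 13.6 and 17.2 with PBS. After 48 h Fcgr1 measured 1.56 and 1.5 RPKM with EV+RANKL, 11.1 and 12.6 with EV, 2.24 and 2.3 with RANKL, and 16.2 and 20.4 with PBS. All 8 libraries with RANKL lay below all 8 without it. The share of all tested genes that did so was not counted. In the order of group means, PBS at 48 h stood highest (18.3 ± 2.97 RPKM, SD) and EV+RANKL at 48 h lowest (1.53 ± 0.047 RPKM). Neighbours in that order overlapped for PBS at 48 h and at 72 h, for PBS and EV at 72 h, and for RANKL at 72 h and at 48 h.

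Fcgr3, the low-affinity activating receptor, was the most abundant member in every library without RANKL. At 72 h it measured 8.01 and 3.45 RPKM with EV+RANKL, 47.1 and 21.8 with EV, 8.82 and 4.43 with RANKL, and 25.8 and 17.4 with PBS. After 48 h Fcgr3 measured 3.19 and 2.09 RPKM with EV+RANKL, 17.6 and 15.5 with EV, 4.24 and 1.21 with RANKL, and 23.8 and 25.6 with PBS. Its libraries with RANKL also all lay below those without, but its changes between 2 groups carried an SE of 0.45 on the log2 scale, against 0.19 for Fcgr1, and replicate 1 of EV at 72 h stood above every other library. Group means ran down to 2.64 ± 0.779 RPKM for EV+RANKL at 48 h, against 34.4 ± 17.9 RPKM for EV at 72 h (SD). Only EV at 48 h and RANKL at 72 h were neighbours in this order without overlap.

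Fcgr4 was highest where vesicles and RANKL were combined for 72 h. At 72 h it measured 15.2 and 11.6 RPKM with EV+RANKL, 9.61 and 5.76 with EV, 7.22 and 10.9 with RANKL, and 2.43 and 2.37 with PBS. After 48 h Fcgr4 measured 5.89 and 4.06 RPKM with EV+RANKL, 2.42 and 3.19 with EV, 5.65 and 4.54 with RANKL, and 3.92 and 4 with PBS. Every treated library at 72 h exceeded the PBS libraries of that time, and the EV+RANKL libraries were the highest of all 16. The order ran from EV+RANKL at 72 h (13.4 ± 2.56 RPKM, SD) down to PBS at 72 h (2.4 ± 0.0438 RPKM). RANKL and EV at 72 h overlapped in that order, as did RANKL and EV+RANKL at 48 h, and EV at 48 h and PBS at 72 h.

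Fcgr2b, the inhibitory receptor, was low except with vesicles alone. At 72 h it measured 2.64 and 2.07 RPKM with EV+RANKL, 12.5 and 5.83 with EV, 1.61 and 1.9 with RANKL, and 3.15 and 1.68 with PBS. After 48 h Fcgr2b measured 2.2 and 2.62 RPKM with EV+RANKL, 3.04 and 4.65 with EV, 1.65 and 1.38 with RANKL, and 1.52 and 1.75 with PBS. EV at 72 h had the highest mean, 9.18 ± 4.74 RPKM (SD), with its libraries clear of every other group though they differed between themselves. EV at 48 h followed at 3.85 ± 1.13 RPKM and overlapped PBS at 72 h, and from there down only EV+RANKL and RANKL at 72 h were neighbours without overlap.

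**Figure D1:**
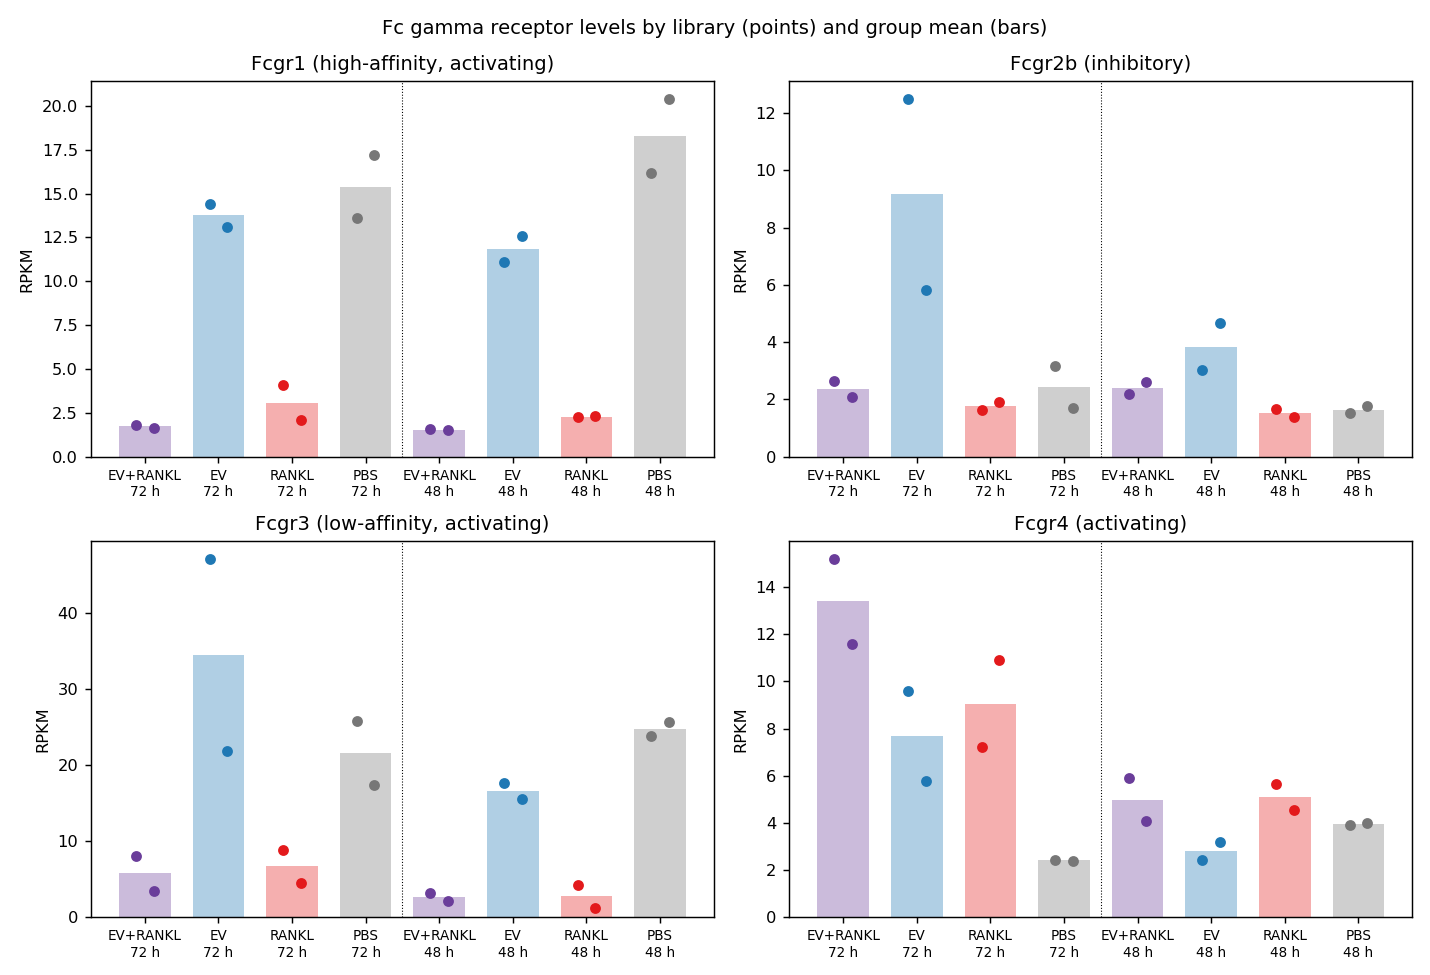
Level in RPKM (vertical axes) of the 4 Fc gamma receptor genes in each of the 8 groups, with points for the 2 libraries and bars for their mean. Fcgr1 and Fcgr3 are low in the 4 groups with RANKL, Fcgr2b is highest with EV at 72 h (12.5 and 5.83 RPKM), and Fcgr4 is highest with EV+RANKL at 72 h (15.2 and 11.6 RPKM).

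RANKL alone against PBS asks what the osteoclast signal does to the receptors. At 72 h, 3 of the 4 members were called at a Benjamini-Hochberg adjusted p under 0.05 in limma, against 18.9% of the 10365 tested genes. Fcgr1 fell by 2.05 ± 0.19 on the log2 scale (SE, limma adjusted p = 3.5e-05) and Fcgr3 fell by 1.61 ± 0.45 (adjusted p = 0.0263). Fcgr4 rose by 1.54 ± 0.23 (limma adjusted p = 8.4e-04), while Fcgr2b changed by -0.28 ± 0.27 with overlapping libraries (adjusted p = 0.525). The call of Fcgr3 was lost without PBS replicate 1 (-1.34), without PBS replicate 2 (-1.88) and without RANKL replicate 2 (-1.18, limma adjusted p = 0.223), and also without the filter on low values (adjusted p = 0.0972). Leaving out RANKL replicate 2 keeps the comparison within the 11 libraries that do not stand apart, and there Fcgr1 fell by 1.68 and Fcgr4 rose by 1.28. That comparison rests on 1 RANKL library, which gives no spread of its own. In bulk RNA, fewer cells of a type and less RNA of a gene per cell cannot be told apart. The summed level of 8 macrophage markers was 2500 to 3190 RPKM with RANKL and 5680 to 6530 RPKM with PBS. Most of that sum was Lyz2, the lysozyme gene. The other 7 summed to 1270 to 1580 RPKM with RANKL and 1560 to 1710 RPKM with PBS, and they did not move together. With RANKL and with PBS, Spi1 was 110 to 113 and 85.5 to 95 RPKM, and Adgre1 25.7 to 33.3 and 20.8 to 22.9 RPKM. Ptprc, also higher with RANKL, was 12.1 to 13.8 and 10.6 to 11.2 RPKM. Cd68 (782 to 1130 and 1130 to 1270 RPKM) and Mrc1 (0.11 to 0.138 and 0.479 to 0.53 RPKM) were lower with RANKL, and Csf1r and Itgam overlapped. The part of these markers in the changes was not tested.

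At 48 h the activating receptors Fcgr3 and Fcgr1 again fell with RANKL. There 2 of the 4 members were called, against 14.8% of tested genes. Fcgr3 fell by 2.91 ± 0.45 on the log2 scale (SE, limma adjusted p = 8.7e-04) and Fcgr1 fell by 2.55 ± 0.19 (adjusted p = 5.8e-06). Counting from the largest fall, Fcgr3 was number 2 and Fcgr1 number 12 of the 10365 tested genes. Fcgr4 changed by 0.29 ± 0.23 (limma adjusted p = 0.429) although its libraries did not overlap, as in 68.3% of tested genes, and Fcgr2b by -0.07 ± 0.27 (adjusted p = 0.901). In every fit that left out a library of these groups, Fcgr1 and Fcgr3 kept their calls. The macrophage marker sum was 3080 to 3120 RPKM with RANKL and 7260 to 7800 RPKM with PBS at this time, and without Lyz2 it was 1260 to 1310 RPKM with RANKL and 1720 to 1810 RPKM with PBS. Of the single markers, Adgre1, Csf1r, Cd68, Itgam and Mrc1 were lower with RANKL and Ptprc overlapped. Spi1 was higher (123 to 131 RPKM, against 96.1 to 98 RPKM with PBS). The part of these markers in the falls was not tested.

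Vesicles alone against PBS ask whether the cancer cell vesicles act on their own. At 72 h, 2 of the 4 members were called, against 18.3% of tested genes. Fcgr2b rose by 1.53 ± 0.27 on the log2 scale (SE, limma adjusted p = 0.00957) and Fcgr4 by 1.32 ± 0.23 (adjusted p = 0.00833). Fcgr1 (-0.15 ± 0.19, limma adjusted p = 0.595) and Fcgr3 (0.57 ± 0.45, adjusted p = 0.375) did not pass, and their libraries overlapped. Both calls were lost without PBS replicate 2 and without EV replicate 1. Far fewer of all tested genes were called in those fits as well. Without PBS replicate 2, Fcgr2b changed by 1.21 (limma adjusted p = 0.111) and Fcgr4 by 1.30 (adjusted p = 0.0826). Without EV replicate 1, Fcgr2b changed by 1.03 (limma adjusted p = 0.07) and Fcgr4 by 0.99 (adjusted p = 0.0714). That EV library held the highest Fcgr2b and Fcgr3 values of all 16, and the part of shared sequence in its Fcgr2b value was not tested.

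At 48 h vesicles alone called 0 of the 4 members by limma, against 1.29% of tested genes. An unadjusted p under 0.05 was found for 2 members, and for 1159 of the 10365 tested genes. The libraries of EV and PBS did not overlap for any member, which was also true of 52.6% of all tested genes. Fcgr2b differed by 0.86 ± 0.27 on the log2 scale (SE, limma adjusted p = 0.186), Fcgr1 by -0.58 ± 0.19 (adjusted p = 0.189), Fcgr3 by -0.55 ± 0.45 (adjusted p = 0.795) and Fcgr4 by -0.39 ± 0.23 (adjusted p = 0.605). The osteoclast marker sum at this time was 83.7 to 92.4 RPKM with EV and 17.5 to 19.2 RPKM with PBS, while the macrophage marker sum was 5780 to 7100 RPKM with EV and 7260 to 7800 RPKM with PBS (without Lyz2, 1500 to 1570 RPKM with EV and 1720 to 1810 RPKM with PBS).

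Vesicles added to RANKL called no receptor at either time. At 72 h 0 of the 4 members were called by limma in EV+RANKL against RANKL, where 1.83% of tested genes were called. An unadjusted p under 0.05 was found for 2 members, and for 2185 of the 10365 tested genes. Fcgr1 differed by -0.53 ± 0.19 on the log2 scale (SE, limma adjusted p = 0.14) and Fcgr4 by 0.54 ± 0.23 (adjusted p = 0.205). Fcgr2b (0.28 ± 0.27) and Fcgr3 (-0.21 ± 0.45) had limma adjusted p of 0.587 and 0.826. The libraries did not overlap for 3 members, Fcgr3 being the exception, nor for 48.4% of all tested genes. RANKL replicate 2 stood apart with the EV+RANKL libraries, whereas RANKL replicate 1 did not. Set against replicate 2 alone, Fcgr1 differed by -0.17 and Fcgr4 by 0.27. Set against replicate 1 alone, Fcgr1 fell by 0.90 and Fcgr4 differed by 0.80.

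At 48 h the same comparison called 0 of the 4 members by limma, against 0.434% of tested genes. No member had an unadjusted p under 0.05, against 834 of the 10365 tested genes. The changes were 0.44 ± 0.27 for Fcgr2b, 0.08 ± 0.45 for Fcgr3, -0.04 ± 0.23 for Fcgr4 and -0.37 ± 0.19 for Fcgr1 (log2, SE). The 95% intervals ran up to 1.03 for Fcgr2b and 1.06 for Fcgr3 and down to -0.90 for Fcgr3 and -0.78 for Fcgr1, so these libraries leave room for changes of that size.

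RANKL added to vesicles lowered Fcgr1 and Fcgr3 at either time. At 72 h all 4 members were called in EV+RANKL against EV, where 22% of tested genes were called, and these 4 libraries lie on the same side of the division. Fcgr1 fell by 2.43 ± 0.19 on the log2 scale (SE, limma adjusted p = 7.0e-06), Fcgr3 fell by 2.38 ± 0.45 (adjusted p = 0.00235) and Fcgr2b fell by 1.52 ± 0.27 (adjusted p = 0.00168). Fcgr4 rose by 0.76 ± 0.23 (limma adjusted p = 0.0303). The call of Fcgr4 was lost without EV replicate 2 (0.43, limma adjusted p = 0.22), without EV+RANKL replicate 1 (0.58, adjusted p = 0.216) and without the filter on low values (adjusted p = 0.0899). The calls of Fcgr1, Fcgr2b and Fcgr3 stood in all 4 fits that left out a library. The macrophage marker sum was 2050 to 2530 RPKM with EV+RANKL and 5850 to 6050 RPKM with EV. Without Lyz2 it was 1330 to 1580 RPKM with EV+RANKL and 1360 to 1580 RPKM with EV, but single markers did not move together. Adgre1 was 20.5 to 21.7 RPKM with EV+RANKL and 31.2 to 40.5 with EV, and Itgam 50.5 to 53.9 and 77.6 to 94.9. Ptprc and Mrc1 were also lower with EV+RANKL. Spi1 was higher (110 to 115 RPKM, against 76.2 to 81.6 with EV), and Csf1r and Cd68 overlapped. The part of these markers in these changes was not tested.

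At 48 h, 2 of the 4 members were called in EV+RANKL against EV, where 9.53% of tested genes were called. Fcgr1 fell by 2.34 ± 0.19 on the log2 scale (SE, limma adjusted p = 3.3e-05) and Fcgr3 fell by 2.28 ± 0.45 (adjusted p = 0.00627). Without EV+RANKL replicate 2 the change of Fcgr3 was -2.06 and its call was lost (limma adjusted p = 0.0593). Fcgr2b differed by -0.49 ± 0.27 (limma adjusted p = 0.323) and Fcgr4 by 0.64 ± 0.23 (adjusted p = 0.104), with no overlap of libraries for any member; 63.6% of all tested genes showed none either.

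Set directly against RANKL, vesicles alone went with higher Fcgr1 and Fcgr3 at either time and with higher Fcgr2b at 72 h. At 72 h, 3 of the 4 members were called in EV against RANKL, where 18.6% of tested genes were called. Fcgr3 was higher by 2.18 ± 0.45 on the log2 scale (SE, limma adjusted p = 0.00627), Fcgr1 by 1.90 ± 0.19 (adjusted p = 1.7e-04) and Fcgr2b by 1.80 ± 0.27 (adjusted p = 0.00127). Fcgr4 differed by -0.22 ± 0.23 with overlapping libraries (limma adjusted p = 0.531). Without EV replicate 1 the call of Fcgr3 was lost (1.64, limma adjusted p = 0.0677). Set against RANKL replicate 2 alone, which stands on the same side of the division, the differences were 2.61 for Fcgr3, 2.26 for Fcgr1 and 1.73 for Fcgr2b. These values rest on 1 RANKL library, which gives no spread of its own.

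At 48 h, 2 of the 4 members were called in EV against RANKL, where 6.95% of tested genes were called. Fcgr3 was higher by 2.36 ± 0.45 on the log2 scale (SE, limma adjusted p = 0.00762) and Fcgr1 by 1.97 ± 0.19 (adjusted p = 1.1e-04). The call of Fcgr3 was lost without RANKL replicate 2 (1.74, limma adjusted p = 0.0936), without EV replicate 1 (2.28, adjusted p = 0.0574) and without EV replicate 2 (2.45, adjusted p = 0.0553). Fcgr2b differed by 0.93 ± 0.27 (limma adjusted p = 0.0624), and by 1.26 with a call (adjusted p = 0.04) when 0.1 in place of 1 was added before taking logs. Fcgr4 differed by -0.68 ± 0.23 (limma adjusted p = 0.0973).

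**Figure D2:**
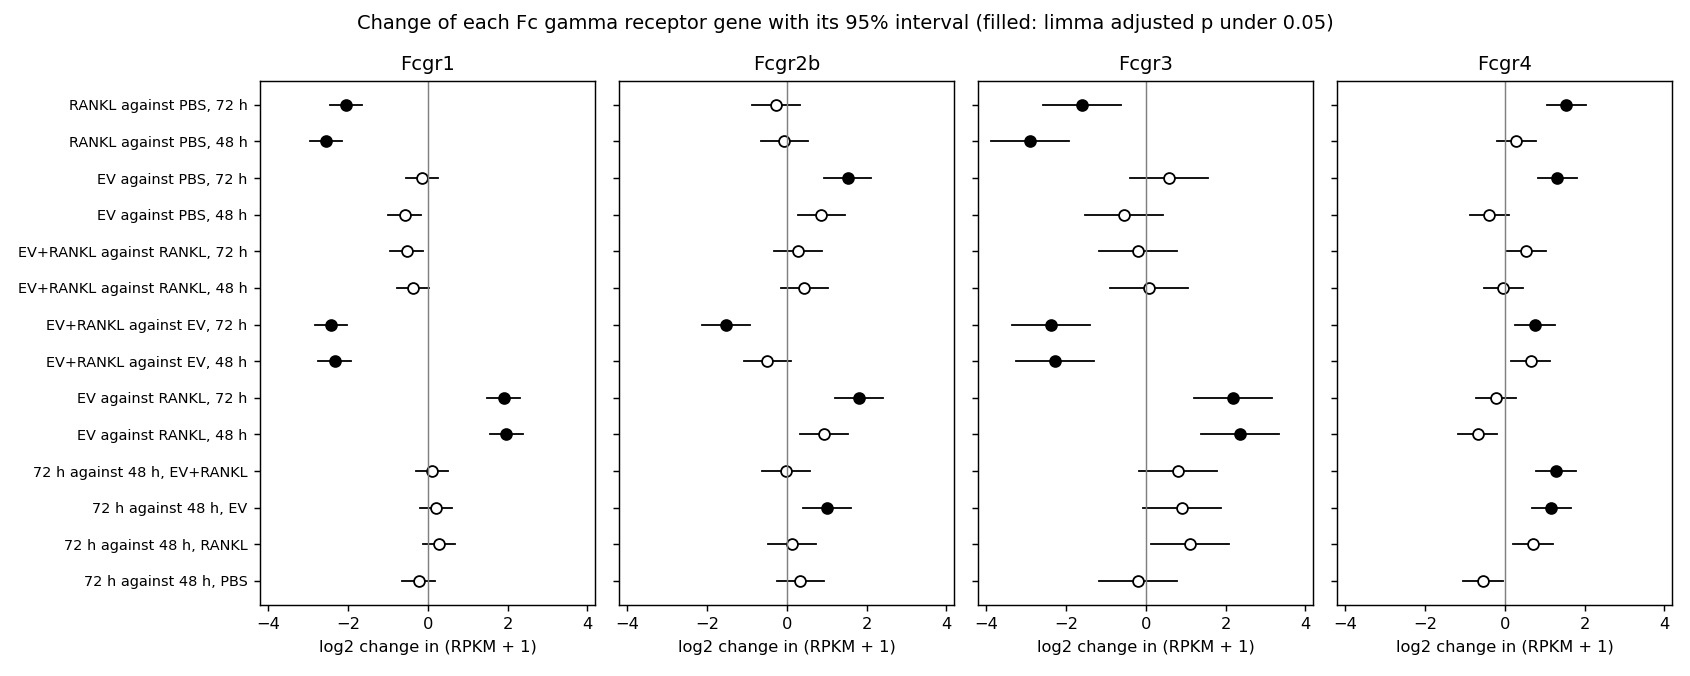
Log2 change in (RPKM + 1) of each Fc gamma receptor gene (horizontal axes) in 14 comparisons of 2 groups (rows), with its 95% interval from limma; filled points have an adjusted p under 0.05. Fcgr1 and Fcgr3 lie left of 0 wherever RANKL was set against PBS or added to EV, and Fcgr4 lies right of 0 with a call for RANKL against PBS (1.54) and EV against PBS (1.32) at 72 h.

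Time itself was tested within each treatment, 72 h against 48 h. With EV+RANKL 1 of the 4 members was called, against 38.9% of tested genes, and it was Fcgr4, which rose by 1.28 ± 0.23 on the log2 scale (SE, limma adjusted p = 0.00188). With EV 2 of the 4 were called, against 32.3% of tested genes: Fcgr4 rose by 1.16 ± 0.23 (limma adjusted p = 0.00494) and Fcgr2b by 1.01 ± 0.27 (adjusted p = 0.0164). Without replicate 1 of EV at 72 h, Fcgr4 changed by 0.84 (limma adjusted p = 0.0541) and Fcgr2b by 0.51 (adjusted p = 0.178), and the call of Fcgr2b was also lost without replicate 1 of EV at 48 h (0.77, adjusted p = 0.124). These shares of called genes were high and both comparisons run across the division of libraries, so time and division cannot be told apart.

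With RANKL alone 0 of the 4 members were called by limma between the times, against 6.03% of tested genes. An unadjusted p under 0.05 was found for 2 members, and for 2957 of the 10365 tested genes. Fcgr3 differed by 1.10 ± 0.45 (log2, SE, limma adjusted p = 0.135) and Fcgr4 by 0.70 ± 0.23 (adjusted p = 0.0784). Without replicate 1 of RANKL at 72 h, Fcgr4 differed by 0.97. Without replicate 2 of that group, which keeps within the 11 libraries, Fcgr4 differed by 0.44. With PBS 0 of the 4 were called by limma, against 0.646% of tested genes. An unadjusted p under 0.05 was found for 1169 of the 10365 tested genes and for 1 member, Fcgr4 with -0.55 ± 0.23 (log2, SE, limma adjusted p = 0.381).

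Whether 1 treatment changed the effect of the other was tested with interaction terms, and 0 of the 4 members were called by limma in any of the 4 such tests. For vesicles with RANKL, 0.00965% of tested genes were called at either time. An unadjusted p under 0.05 was found for 2 members at 72 h and 0 at 48 h. Of the 10365 tested genes, 959 at 72 h and 318 at 48 h had one. The interaction at 72 h was -1.25 ± 0.39 on the log2 scale for Fcgr2b (SE, limma adjusted p = 0.33) and -0.78 ± 0.32 for Fcgr4 (adjusted p = 0.473). For the RANKL effect at 72 h against that at 48 h, 0.0289% of tested genes were called. An unadjusted p under 0.05 was found for 1202 tested genes and for 1 member, Fcgr4 with 1.25 ± 0.32 (limma adjusted p = 0.208). Without replicate 1 of RANKL at 72 h that difference was 1.52. For the vesicle effect at 72 h against 48 h, 0.0193% of tested genes were called. An unadjusted p under 0.05 was found for 2012 tested genes and for 1 member, again Fcgr4, with 1.71 ± 0.32 (limma adjusted p = 0.094). Without replicate 2 of EV at 72 h the difference between the vesicle effects was 2.03 for Fcgr4 and 1.16 for Fcgr2b.

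The make-up of the family differed between libraries with and without RANKL, as did its sum. In the EV+RANKL libraries at 72 h Fcgr4 made up 55% and 61.8% of the summed RPKM of the 4 genes, while Fcgr1 made up 6.53% and 8.78%. With RANKL alone Fcgr4 made up 33.2% and 56.4% at 72 h and 41% and 48.1% at 48 h. In the PBS libraries at 72 h Fcgr4 made up 5.39% and 6.12%, while Fcgr3 made up 57.3% and 45.1%. Thus Fcgr4 was the leading receptor RNA in 7 of the 8 libraries with RANKL and in none without it. Replicate 1 of RANKL at 72 h was the exception, with Fcgr3 at 40.6%. These shares compare genes per length, and the gene lengths that entered the authors' RPKM were not given.

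The summed RPKM of the 4 genes at 72 h was 27.7 and 18.8 with EV+RANKL, 83.6 and 46.4 with EV, 21.7 and 19.3 with RANKL, and 45.1 and 38.7 with PBS. At 48 h it was 12.8 and 10.3 with EV+RANKL, 34.1 and 35.9 with EV, 13.8 and 9.42 with RANKL, and 45.4 and 51.7 with PBS. Every library with RANKL thus held less receptor RNA than any library without it. The ratio of the inhibitory Fcgr2b to the activating Fcgr3, in RPKM, was 0.329 and 0.6 with EV+RANKL, 0.266 and 0.268 with EV, 0.183 and 0.429 with RANKL, and 0.122 and 0.0963 with PBS at 72 h. At 48 h it was 0.689 and 1.25 with EV+RANKL, 0.173 and 0.3 with EV, 0.39 and 1.14 with RANKL, and 0.0641 and 0.0683 with PBS. The PBS libraries had the lowest ratios at either time, and these shares and ratios were not tested.

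**Figure D3:**
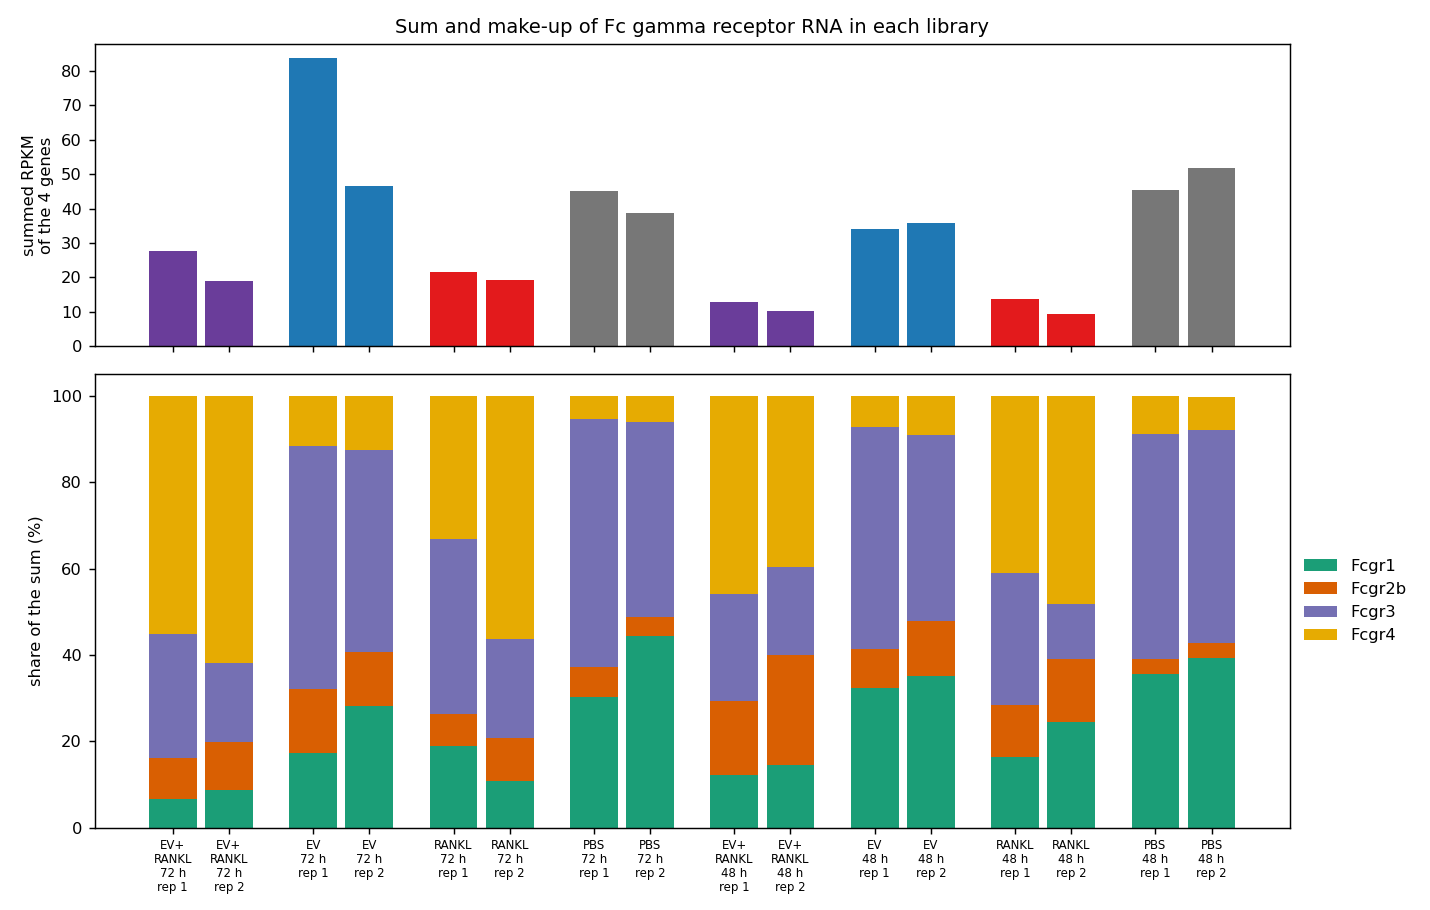
Summed RPKM of the 4 Fc gamma receptor genes (top) and the share of each gene in that sum in percent (bottom) for each of the 16 libraries. Fcgr4 takes 33.2% to 61.8% of the sum in libraries with RANKL and 5.39% to 12.4% in libraries without it.

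The gamma chain that the activating receptors need was more abundant than the receptors themselves in every library. At 72 h Fcer1g measured 116 and 99.2 RPKM with EV+RANKL, 167 and 130 with EV, 80.9 and 102 with RANKL, and 107 and 91 with PBS. After 48 h Fcer1g measured 57.5 and 61.6 RPKM with EV+RANKL, 75.5 and 91 with EV, 68.3 and 61.2 with RANKL, and 95.8 and 103 with PBS. Fcer1g fell by 0.61 ± 0.15 on the log2 scale with RANKL against PBS at 48 h (SE, limma adjusted p = 0.0169), and at 72 h it differed by -0.12 ± 0.15 (adjusted p = 0.629). With EV at 72 h it rose by 0.57 ± 0.15 against PBS (limma adjusted p = 0.0253) and was higher by 0.69 ± 0.15 than with RANKL (adjusted p = 0.00838). The comparison of EV with PBS at 72 h runs wholly across the division of libraries. For Fcer1g and the listed genes below, no result with a library left out is given. The ratio of Fcer1g to the summed receptors was 3.72 to 6.49 in libraries with RANKL and 1.98 to 2.79 in libraries without it.

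Of 13 further Fc receptors and Fc-binding proteins, 9 were in the table and 4 were tested: Fcer1g, Fcgrt, Trim21 and Fcrl1. With RANKL against PBS, 1 rose and 0 fell at 72 h (Fcgrt, the neonatal Fc receptor, by 0.95 ± 0.23 with limma adjusted p = 0.014), and 0 rose and 1 fell at 48 h, where 18.9% and 14.8% of all tested genes were called. Their median change was -0.05 at 72 h and -0.17 at 48 h, against 0.00 and 0.06 over all tested genes. With EV against PBS at 72 h, which runs across the division of libraries, 2 rose and 1 fell. Fcgrt changed by 0.83 ± 0.23 (limma adjusted p = 0.0305) and Fcrl1 by -0.48 ± 0.15 (adjusted p = 0.042). The median was 0.36 against 0.03, where 18.3% of all tested genes were called. In EV+RANKL against EV at 72 h, 0 rose and 1 fell, against 22% of all tested genes called; it was Trim21, the cytosolic antibody receptor, which fell by 0.57 ± 0.15 (limma adjusted p = 0.0143).

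The activating arm downstream of the receptors was represented by 33 genes, of which 31 were tested. With RANKL against PBS, 6 rose and 3 fell at 72 h, where 18.9% of all tested genes were called, and 3 rose and 4 fell at 48 h, where 14.8% were; the medians were 0.03 and -0.08, against 0.00 and 0.06 over all tested genes. The Src-family kinases that phosphorylate the ITAM did not move together. Src rose by 2.36 ± 0.25 at 72 h (SE, limma adjusted p = 8.7e-05) and by 1.55 ± 0.25 at 48 h (adjusted p = 0.00116). Fgr fell by 0.77 ± 0.14 at 72 h (limma adjusted p = 0.00262). Rac2, a GTPase of phagocytosis and of the oxidative burst, rose by 0.49 ± 0.12 at 72 h (limma adjusted p = 0.0122), and at 48 h Plcg1 rose by 0.40 ± 0.09 (adjusted p = 0.00693) while Vav1 fell by 0.43 ± 0.10 (adjusted p = 0.0132).

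Syk, the kinase recruited by the gamma chain, measured 16.7 and 14.6 RPKM with EV+RANKL, 12.5 and 8.81 with EV, 11.1 and 12.2 with RANKL, and 8.03 and 6.37 with PBS at 72 h. All treated libraries exceeded the PBS libraries at this time. After 48 h Syk measured 9.84 and 7.58 RPKM with EV+RANKL, 7.29 and 6.68 with EV, 7.5 and 5.78 with RANKL, and 8.45 and 7.86 with PBS. It rose by 0.63 ± 0.17 with RANKL at 72 h (limma adjusted p = 0.0193) and by 0.53 ± 0.17 in EV+RANKL against EV (adjusted p = 0.0366). Against PBS it differed by 0.50 ± 0.17 with EV at 72 h (limma adjusted p = 0.0553), and at 48 h no comparison called it.

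With EV against PBS, 6 of the 31 activating genes rose and 1 fell at 72 h, where 18.3% of all tested genes were called. Among those that rose were Tyrobp (DAP12), the other ITAM adaptor of osteoclast precursors, by 0.70 ± 0.17 (SE, limma adjusted p = 0.0182) and the kinase Tec by 0.64 ± 0.17 (adjusted p = 0.027). These changes, too, lie across the division of libraries. The median change of the 31 at 72 h was 0.11, against 0.03 over all tested genes. At 48 h 0 of 31 were called by limma (1.29% of all tested genes). There 4 of them had an unadjusted p under 0.05, against 1159 of the 10365 tested genes. In EV+RANKL against RANKL 0 rose and 1 fell at 72 h (1.83% of all tested genes called), Fgr, by 0.79 ± 0.14 (limma adjusted p = 0.0221). At 48 h 0 were called (0.434% of all tested genes). There 6 had an unadjusted p under 0.05, against 834 of the 10365 tested genes. In EV+RANKL against EV 8 rose and 3 fell at 72 h, where 22% of all tested genes were called, led by Fgr (-1.73 ± 0.14, limma adjusted p = 8.2e-06) and Src (2.38 ± 0.25, adjusted p = 5.0e-05).

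The inhibitory arm was represented by 14 genes, of which 13 were tested. Inpp5d, the SHIP1 phosphatase that Fcgr2b recruits, stayed between 20.1 and 28 RPKM in all 16 libraries. It was called only in EV+RANKL at 72 h against 48 h among the 18 tests, where it rose by 0.29 ± 0.10 (limma adjusted p = 0.0308). With RANKL against PBS, 3 of the 13 rose and 3 fell at 72 h, and 1 rose and 3 fell at 48 h, beside the 18.9% and 14.8% of all tested genes called, with medians of 0.12 and -0.07, against 0.00 and 0.06 over all tested genes. Dok3, an adaptor that restrains immunoreceptor signalling, rose by 1.19 ± 0.21 with RANKL at 72 h (limma adjusted p = 0.00261) and by 1.31 ± 0.21 with EV (adjusted p = 0.0071), and its relative Dok2 fell by 0.55 ± 0.12 with RANKL (adjusted p = 0.00844) and fell by 0.56 ± 0.12 with EV (adjusted p = 0.0135). With EV at 72 h 4 of the 13 rose and 1 fell in all (18.3% of all tested genes called), with a median of -0.10 against 0.03, and Pirb, an inhibitory receptor with ITIM motifs, rose by 0.90 ± 0.25 (limma adjusted p = 0.0288). The changes with EV at 72 h, those of Dok3 and Dok2 included, lie across the division of libraries. In EV+RANKL against EV at 72 h 2 rose and 1 fell (22% of all tested genes called), and Cblb, a ubiquitin ligase, rose by 0.67 ± 0.10 (limma adjusted p = 4.2e-04).

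Regulators known to act on Fc gamma receptor transcription were 13 genes, of which 12 were tested. Irf8, a factor that maintains the macrophage lineage and restrains osteoclast formation, measured 2.57 and 1.27 RPKM with EV+RANKL, 9.88 and 7.76 with EV, 3.39 and 1.4 with RANKL, and 11 and 7.5 with PBS at 72 h. At 48 h it measured 0.971 and 0.788 RPKM with EV+RANKL, 5.49 and 5.62 with EV, 0.96 and 0.808 with RANKL, and 6.41 and 6.44 with PBS. All libraries with RANKL lay below all without it, as for Fcgr1 and Fcgr3. How many of all tested genes did so was not counted, and a link between these genes was not tested. Irf8 fell by 1.64 ± 0.26 at 72 h (SE, limma adjusted p = 0.00125) and fell by 1.98 ± 0.26 at 48 h (adjusted p = 2.8e-04) with RANKL against PBS. With EV against PBS it differed by -0.05 ± 0.26 at 72 h (limma adjusted p = 0.906) and by -0.18 ± 0.26 at 48 h (adjusted p = 0.932).

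Spi1, which encodes PU.1, moved less and the other way: with RANKL against PBS it rose by 0.30 ± 0.09 at 72 h (limma adjusted p = 0.0306) and by 0.39 ± 0.09 at 48 h (adjusted p = 0.0101), while Cebpa fell by 0.71 ± 0.18 at 48 h (adjusted p = 0.0159). In all, with RANKL against PBS 2 of the 12 rose and 1 fell at 72 h, and 1 rose and 2 fell at 48 h, beside 18.9% and 14.8% of all tested genes called, with medians of 0.00 and -0.04, against 0.00 and 0.06 over all tested genes. With EV against PBS 1 rose at 72 h, Irf1 by 0.48 ± 0.12 (limma adjusted p = 0.0182), across the division of libraries. The median there was 0.06 against 0.03, with 18.3% of all tested genes called. At 48 h 0 of 12 were called, where 1.29% of all tested genes were. There 3 had an unadjusted p under 0.05, against 1159 of the 10365 tested genes.

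**Figure D4:**
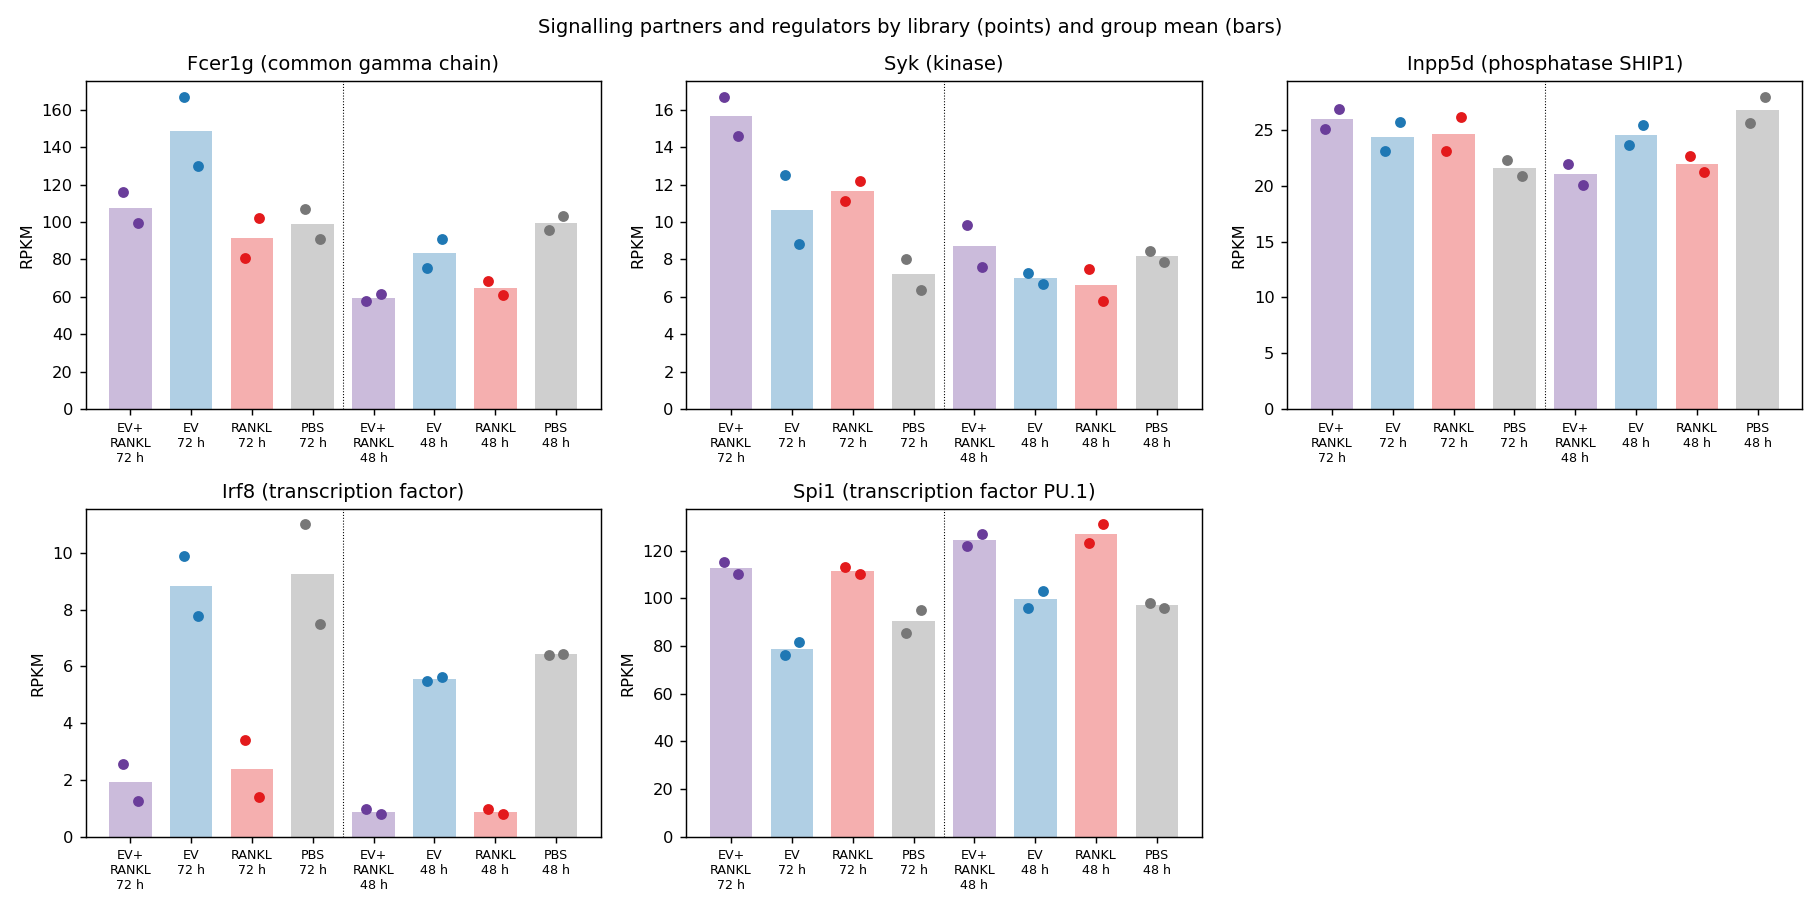
Level in RPKM (vertical axes) of the gamma chain Fcer1g, the kinase Syk, the phosphatase Inpp5d and the transcription factors Irf8 and Spi1 in the 8 groups, with points for the 2 libraries and bars for their mean. Irf8 is low in the groups with RANKL (0.788 to 3.39 RPKM, against 5.49 to 11 RPKM without), Inpp5d stays between 20.1 and 28 RPKM, and Fcer1g is highest with EV at 72 h.

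Across the 16 libraries, which share the 8 groups and so are not independent, the log2 levels of Fcgr1 and Fcgr3 had a Pearson correlation of 0.91. Fcgr2b ran with Fcgr3 at 0.55 and with Fcgr1 at 0.36, and Fcgr4 ran against Fcgr1 at -0.57 and against Fcgr3 at -0.28. Among all other named genes tested, those most like Fcgr1 were Alpk1 (0.985), Mef2c (0.979), Fli1 (0.978), D1Ertd622e (0.977) and Adam15 (0.976). Those most like Fcgr3 were Lgmn, a lysosomal protease (0.986), Tlr13, a sensor of bacterial RNA (0.981), Xdh (0.976), the receptor chain Il10ra (0.973) and Siglec1, a sialic acid-binding receptor (0.972). Those most like Fcgr4 were Eif3f (0.965), Coro1b (0.958), the inhibitory adaptor Dok1 (0.955), Pnpla7 (0.954) and Bcas3 (0.952). Those most like Fcgr2b were P3h3 (0.952), Aldh5a1 (0.936), Nlgn2 (0.923), Arhgef3 (0.911) and Ift122 (0.895), all at or below 3.89 RPKM in every library.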

How the data were processed

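The 16 libraries, 2 for each of 8 groups, were made from total RNA of RAW264.7 cells with the TruSeq mRNA preparation kit, per the labels' protocols. FastQC, HISAT2 and Partek were used, per the submitters' processing notes, which name the human builds GRCh38 and hg38, although the table holds mouse symbols. The mouse build, annotation, counting and strand setting are not named there or elsewhere in the sources used here. The values the authors deposited are on a log2 scale and were taken as log2(RPKM + 1), a reading made from the values. At the best depth, 80.8% to 85.4% of low values of single-exon genes (2095 genes) were whole reads within 0.05, against 66.9% to 72.5% with base e and 33.5% to 44.8% with base 10. The depth estimate of 18.3 to 20 M reads (M for mega) comes from the same check. Of the gene names, 92.9% were found in GENCODE release M21, and 24 date-like names were left unnamed. The column of 1 EV+RANKL library at 48 h lacked the letter for RANKL, so only its group was inferred, and it is called replicate 2.

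A count test was not applicable to such values. Instead limma 3.58.1 (R 4.3.3) was fitted to the log2 values of the 10365 genes that reached 1 RPKM in 2 or more libraries, with a variance trend, 8 group means, all 16 libraries and Benjamini-Hochberg adjustment over all tested genes within each comparison. The 14 comparisons of 2 groups and 4 interactions were tested two-sided at 0.05. Fold changes are on the log2(RPKM + 1) scale, which understates changes of low genes. The fit was tried on simulated data with independent noise and no division of libraries, so that trial does not bear on the division. Alternatives were median centring, an added 0.1, no filter, no variance trend, the replicate number as a block, and leaving out each library. Of listed genes the text names at most 4 called ones per list and comparison, plus Fcer1g, Syk, Inpp5d and Irf8, and for each receptor the 5 genes with the highest Pearson correlation. The receptors and lists were chosen with earlier results of these data known. Some genes that the rule names are among the counts but not reported here by name. Sequences come from GENCODE transcripts and from RefSeq promoters.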

Additional observations from a re-analysis of the deposited data

Results flagged for a closer look

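The vesicle effect on Fcgr4 stood out because it pointed in opposite directions at the 2 times. At 72 h the libraries with EV (9.61 and 5.76 RPKM) lay above those with PBS (2.43 and 2.37 RPKM), and at 48 h the libraries with EV (2.42 and 3.19 RPKM) lay below those with PBS (3.92 and 4 RPKM). Libraries of EV and PBS did not overlap for 57.1% of all tested genes at 72 h and 52.6% at 48 h. The change at 48 h was -0.39 ± 0.23 on the log2 scale and was not called (SE, limma adjusted p = 0.605). The comparison at 72 h runs wholly across the division of libraries. The difference between the vesicle effects was 1.71 ± 0.32 on the log2 scale (SE, 72 h minus 48 h, limma adjusted p = 0.094), which does not pass the threshold after adjustment over 10365 genes. Only 4 of those genes had a larger difference in this direction. Ribosomal protein genes took 11.46% and 11.04% of summed RPKM with EV and 9.809% and 8.638% with PBS at 72 h, and 8.81% and 8.722% with EV and 8.634% and 8.205% with PBS at 48 h; the part of this share in the difference was not tested.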

How the results depend on the processing

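Of the 72 results for single receptors, median centring and a fit without the variance trend each left 72 with the same direction and side of the threshold, an added 0.1 left 71, and the fit without a filter, with 19934 genes tested, left 69. No result changed direction under these settings. Of 352 results with 1 library left out, 17 lost a call, 6 gained a call and 16 changed sign. The 16 belong to 11 changes, none of them called either way. Their ranges were -0.14 to 0.011 (Fcgr2b) for RANKL against PBS at 48 h and -0.59 to 0.040 (Fcgr2b) at 72 h, -0.54 to 0.70 (Fcgr3) and -0.26 to 0.18 (Fcgr4) for EV+RANKL against RANKL at 48 h and -0.71 to 0.30 (Fcgr3) at 72 h, -0.30 to 0.0094 (Fcgr1) for EV against PBS at 72 h, and -0.55 to 0.10 (Fcgr4) for EV against RANKL at 72 h. Between the times they were -0.48 to 0.065 (Fcgr3) with PBS, -0.088 to 0.64 (Fcgr1) with RANKL, -0.15 to 0.10 (Fcgr2b) with EV+RANKL, and -0.53 to 0.11 (Fcgr2b) for the difference between the RANKL effects. Without the filter, 1 receptor was called for EV at 72 h against 48 h, against 2 with it; the cause was not tested. Leaving out 1 library gave 1 to 2 receptors called for EV+RANKL against EV at 48 h, 1 to 2 for EV against RANKL at 48 h, 0 to 2 for EV against PBS at 72 h, 0 to 1 for EV+RANKL against RANKL at 72 h, 0 to 1 for RANKL at 72 h against 48 h and 0 to 3 for EV at 72 h against 48 h. It gave 0 to 1 for the difference between the RANKL effects and 0 to 2 for that between the vesicle effects. In these comparisons the number of all tested genes called also shifted widely with the library left out. How far the counts of receptors followed that shift was not tested. A group reduced to 1 library is assumed to vary like the others.

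With the replicate number as a block, 1 receptor was called for RANKL at 72 h against 48 h (Fcgr3, 1.10, limma adjusted p = 0.0268) and 2 for EV+RANKL at 72 h against 48 h (Fcgr3 added, 0.82, adjusted p = 0.0278); Fcgr3 was also called for EV at 72 h against 48 h (0.92, adjusted p = 0.0199), and the block changed no other receptor's call. Same-numbered libraries deviated together at over 0.1 in 17 of 28 pairs of groups (correlations of -0.12 to 0.53), short of every pair, so the numbers were not taken to pair the libraries. With 2 libraries per group, the SE of a change between 2 groups was 0.45 for Fcgr3, 0.27 for Fcgr2b, 0.23 for Fcgr4 and 0.19 for Fcgr1 on the log2 scale, and the lengths and multi-gene reads used for RPKM are unknown.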
